A study of Mus musculus with 2 samples.

Results

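The genes described here are 10 of the 14732 gene symbols listed for at least 1 library, and were taken by name: the death receptors *Fas*, *Tnfrsf1a*, *Tnfrsf10b*, *Tnfrsf21* and *Tnfrsf25*, the ligands *Fasl* and *Tnfsf10*, and the proximal signaling genes *Fadd*, *Casp8* and *Cflar*. All 10 were listed for both libraries. Restimulated CD8+ T cells of OT-I transgenic mice (C57BL/6, 6 to 8 weeks old, spleen and lymph nodes), whose T cell receptor recognizes the SIINFEKL peptide of ovalbumin, were compared with or without Eomes overexpression. Cells of both conditions had received the peptide at 2.5 ng/mL with IL-2 at 10 U/mL for 24 h. They were transduced with a retroviral vector and sorted for human CD2 (hCD2) 48 h later. They were then plated at 40000 cells per well with the same peptide and IL-2 for 3 more days. The vector encoded Eomes and hCD2 in Eomes-overexpressing OT-I cells and hCD2 without Eomes in control OT-I cells. The promoter driving the insert and the number of mice pooled are not given in the sources used here. Each condition was sequenced as 1 library, called the control library and the Eomes library, so the differences below could not be checked against replicates and carry no p-value.

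Death receptors are members of the TNF receptor superfamily that carry a death domain in their cytoplasmic tail. Fas, bound by Fas ligand, recruits the adaptor FADD through this domain, and FADD in turn gathers procaspase-8, which is cleaved and starts apoptosis unless cFLIP, the catalytically inactive relative encoded by *Cflar*, takes its place. In T cells, Fas ligand on the surface of a cytotoxic cell kills Fas-bearing targets independently of granzymes, and binding to Fas on the T cells themselves contributes to the contraction of activated clones. Other death receptors, such as TNF receptor 1 and DR3, use the adaptor TRADD first and mainly drive NF-kB signaling.

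Expression values are RPKM, reads scaled by transcript length and library depth, which the deposited files name FPKM. As they are scaled to length, levels of different genes can be set side by side, but only roughly, since the transcript lengths used are not given. The *Eomes* transcript itself reached an RPKM of 129.6 in the Eomes library, from 2.47 in the control library. The files hold no read numbers, but low values of short genes fall on steps worth 1 read, and these steps place the depth at about 19380000 reads for the control library and 19600000 for the Eomes library. Reads per gene were approximated from RPKM, depth and the shortest coding transcript shared with RefSeq, and each log2 ratio is given with a counting interval, the 95% Clopper-Pearson (exact binomial) interval of its reads. Such an interval holds the error of counting alone and sets 1 library against another rather than the conditions. The 6 markers of CD8 T cells (*Cd3e*, *Cd3d*, *Cd3g*, *Cd8a*, *Cd8b1* and *Cd2*) were at an RPKM of 145.2 to 265.3 in control and 99.1 to 196.4 in Eomes-overexpressing cells, all 6 lower in the latter, with *Cd8a* at a log2 ratio of -0.88. In bulk RNA, fewer cells of a type and less RNA per cell cannot be told apart. Of 22 markers of other cell types, 7 were listed in neither library, and the whole list summed to an RPKM of 4.48 in the control library and 9.34 in the Eomes library. *Klrb1c*, which encodes the NK cell receptor NK1.1, was at 0.31 and 5.74, while *Ncr1*, the other NK cell marker of the list, was listed in neither library. The part of these markers in the results below was not tested.

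The upstream regions of *Fasl*, *Tnfrsf21* and *Tnfrsf25* are shown because they are the members with a T-box core in the 250 bases before the start site, and that of *Fas* because its receptor pairs with *Fasl* and its transcript differed in the other direction. T-box factors such as Eomes and T-bet bind DNA around the core GGTGTG, within the half-site AGGTGTGA. Capitals mark GGTGTG or its reverse complement CACACC. Sequences are from RefSeq (GRCm38.p6, the same coordinates as mm10), 5′ to 3′ on the strand of the gene, and end at the base before the start site. They lie at chr1:161788496-161788745 on the minus strand, and at chr17:43016305-43016554, chr4:152115684-152115933 (the first of 2 start sites listed) and chr19:34290409-34290658 on the plus strand.
*Fasl*: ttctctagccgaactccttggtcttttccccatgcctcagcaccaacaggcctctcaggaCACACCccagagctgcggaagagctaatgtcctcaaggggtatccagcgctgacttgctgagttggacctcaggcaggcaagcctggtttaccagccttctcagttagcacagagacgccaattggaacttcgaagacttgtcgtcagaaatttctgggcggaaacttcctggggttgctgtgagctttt
*Tnfrsf21*: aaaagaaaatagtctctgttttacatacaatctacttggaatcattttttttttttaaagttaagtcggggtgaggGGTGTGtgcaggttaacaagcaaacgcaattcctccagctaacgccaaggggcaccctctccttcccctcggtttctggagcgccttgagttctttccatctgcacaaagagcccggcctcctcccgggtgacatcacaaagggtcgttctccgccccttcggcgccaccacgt
*Tnfrsf25*: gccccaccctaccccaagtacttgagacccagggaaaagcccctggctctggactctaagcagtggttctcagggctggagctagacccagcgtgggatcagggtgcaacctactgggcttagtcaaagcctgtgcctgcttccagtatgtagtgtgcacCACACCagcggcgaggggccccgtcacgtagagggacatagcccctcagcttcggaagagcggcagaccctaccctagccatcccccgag
*Fas*: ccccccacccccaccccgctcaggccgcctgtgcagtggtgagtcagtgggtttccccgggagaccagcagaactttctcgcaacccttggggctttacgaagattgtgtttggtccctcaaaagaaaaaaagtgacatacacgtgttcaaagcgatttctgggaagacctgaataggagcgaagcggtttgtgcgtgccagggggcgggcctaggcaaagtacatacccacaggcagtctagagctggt

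The reference held upstream regions for 9 of the 10 genes, with *Tnfrsf10b* as the missing entry. The core was found in 3 of these 9, on the strand of the gene in *Tnfrsf21* (first base 174 bases before the start site) and on the opposite strand in *Fasl* (190 bases before it) and *Tnfrsf25* (90 bases before it). Searched on both strands, the same 6 letters occurred in 16.3% of all 32851 upstream regions of this length and in 15.3% of those of expressed genes. The 8-letter half-site, which contains the core, was found in none of the 10 regions of these 9 genes and in 1.12% of all regions. The genes with a core include transcripts that were higher and 1 that was lower in Eomes-overexpressing cells, as given next. Letters in a window do not show binding, and Eomes binding was not analysed here.

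Among the 10 genes, 3 had a higher and 2 a lower transcript abundance by more than 1.5-fold in Eomes-overexpressing OT-I cells, and the other 5 lay within 1.5-fold. The ligands *Fasl* and *Tnfsf10* and the receptor *Tnfrsf21* were the higher ones, and the receptors *Fas* and *Tnfrsf25* the lower ones. The intracellular genes *Fadd*, *Casp8* and *Cflar* had nearly equal values in both libraries. Genes reaching an RPKM of 1 in either library were called expressed, and all 10 passed, *Tnfrsf25* through the control library alone. Among all 9925 expressed genes, 7.65% lay past 1.5-fold, 2.46% higher and 5.19% lower. The share depends on the level: between a mean RPKM of 1 and 5 it was 16.9%, and there 4 of 4 members (*Fas*, *Tnfrsf21*, *Tnfrsf25* and *Tnfsf10*) lay past 1.5-fold, whereas from a mean RPKM of 5 upward it was 3.51%, and there *Fasl* lay past 1.5-fold and the other 5 of 6 members did not. When both libraries had to reach an RPKM of 1, 5.58% of genes lay past 1.5-fold, beside 4 of 9 members. When the counting interval also had to leave out 0, a criterion added after the data were seen, 7.15% of 9835 expressed genes were counted, beside 4 of the 10 members, as *Fas* was lost with its shortest transcript. The median log2 ratio over the 10 genes was -0.017, beside -0.0037 over all expressed genes. It falls between *Tnfrsf1a* (-0.026) and *Fadd* (-0.0085), so it does not reflect the sizes of the higher and lower ratios.

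**Figure D1:**
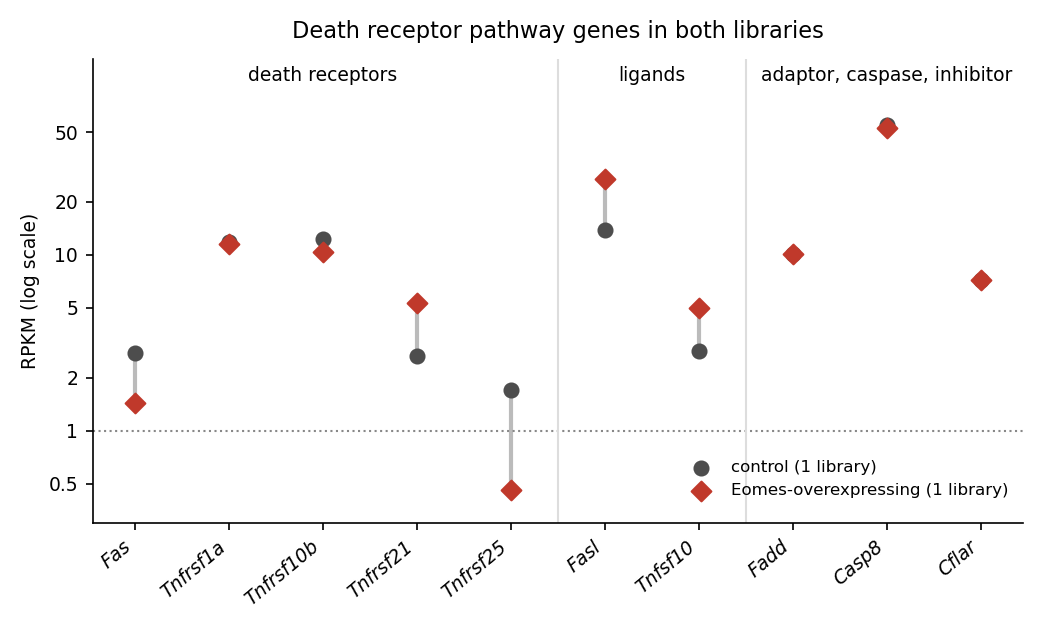
RPKM (log scale) of the 10 genes in the control library (circles) and the Eomes-overexpressing library (diamonds), grouped by role, with 1 library per condition and a dotted line at an RPKM of 1. *Fasl*, *Tnfsf10* and *Tnfrsf21* lie higher and *Fas* and *Tnfrsf25* lower in Eomes-overexpressing cells, whereas the 2 symbols of *Fadd*, *Casp8* and *Cflar* nearly coincide.

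*Fasl*, on chromosome 1 of mm10 from 161780689 to 161788495 (minus strand, ENSMUSG00000000817.10), encodes Fas ligand, the membrane protein with which cytotoxic T cells trigger Fas. Its RPKM was 13.8 in the control library and 27.1 in the Eomes library, a 1.96-fold difference. The log2 ratio of 0.97 rests on about 518 and 1028 reads (counting interval 0.82 to 1.13), and the whole interval lies above 1.5-fold (0.58). *Fasl* ranked 73 of 9925 by log2 ratio, counted from the highest, and 99.4% of the 500 expressed genes closest in mean RPKM had a lower one.

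*Tnfsf10*, on chromosome 3 from 27317028 to 27342427 (plus strand, ENSMUSG00000039304.11), encodes TRAIL, the ligand of the receptor encoded by *Tnfrsf10b*. The RPKM was 2.84 in the control library and 4.99 in the Eomes library, 1.76-fold higher. About 275 and 488 reads give a log2 ratio of 0.81 (counting interval 0.59 to 1.03). This low end lies close to 1.5-fold. Both ligands listed among the 10 genes were higher past 1.5-fold, beside 2.46% of all expressed genes. Of the 3 other expressed ligands, counted below, 0 were higher past 1.5-fold, with log2 ratios from -0.75 to 0.20.

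*Fas*, on chromosome 19 from 34290666 to 34327772 (plus strand, ENSMUSG00000024778.13), encodes the receptor of Fas ligand. Its transcript was scarce and went the other way from that of its ligand, with an RPKM of 2.76 in the control library and 1.44 in the Eomes library. The log2 ratio was -0.94, so control was 1.92-fold higher. The counting error depends on the transcript: coding transcripts of *Fas* shared with RefSeq are 532 to 1481 bases long, and the files do not say which was sequenced. With the shortest, about 28 and 15 reads give an interval of -1.93 to 0.04, which includes 0, and with the longest, about 79 and 42 reads give -1.50 to -0.37, which does not. Among the 500 expressed genes closest in mean RPKM, 94.4% had a higher log2 ratio, and the central 95% of them ran from -1.28 to 0.91, so that *Fas* lay inside the range of genes of its level. Within each library, the RPKM of *Fasl* was 5.0 times that of *Fas* in the control library and 18.8 times in the Eomes library. Both ratios carry the counting error of *Fas*. In the Eomes library, its exact Poisson interval (95%) ran from an RPKM of 0.81 to 2.38 with the shortest transcript.

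*Tnfrsf25*, on chromosome 4 from 152115934 to 152120119 (plus strand, ENSMUSG00000024793.14), encodes DR3, a death domain receptor that binds the cytokine TL1A and costimulates T cells. It had the largest difference of the 10 genes, with an RPKM of 1.71 in the control library and 0.46 in the Eomes library, 3.72-fold higher in control. The log2 ratio of -1.89 (counting interval -2.90 to -1.07) comes from only about 53 and 14 reads. It was at position 22 counted from the lowest log2 ratio, and below the central 95% of genes of like level (-1.36 to 0.94). As *Tnfrsf25* passed the minimum RPKM of 1 through the control library alone, this position and range only describe it and test nothing. With 1 added to both RPKM values, the log2 ratio was -0.89. *Tnfsf15*, which encodes TL1A, was listed at 0.02 in both libraries.

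*Tnfrsf21*, on chromosome 17 from 43016555 to 43089189 (plus strand, ENSMUSG00000023915.5), encodes DR6, a death domain receptor. Its RPKM was 2.66 in the control library and 5.31 in the Eomes library, 1.996-fold higher. The log2 ratio was 0.997, with about 187 and 377 reads and a counting interval of 0.74 to 1.26, all of it past 1.5-fold. Only 0.2% of the 500 expressed genes closest in mean RPKM had a higher log2 ratio.

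**Figure D2:**
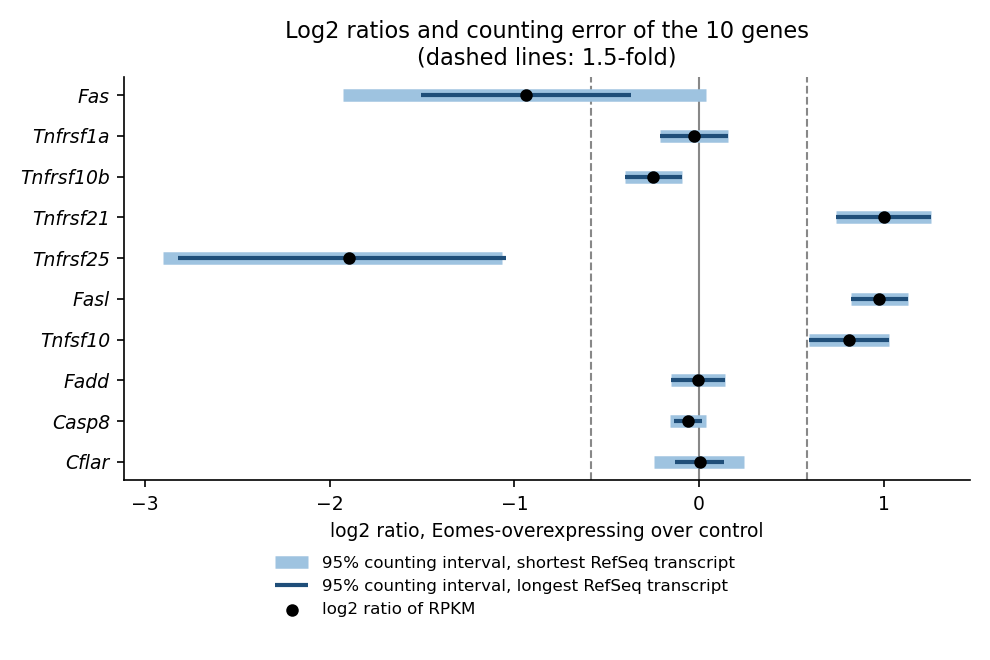
Log2 ratio of RPKM, Eomes-overexpressing over control, for each of the 10 genes (points), with 95% counting intervals from approximated reads of the shortest (pale bars) and the longest (dark bars) RefSeq transcript and dashed lines at 1.5-fold. The interval of *Fas* reaches 0 with its shortest transcript, those of *Tnfrsf25*, *Tnfrsf21*, *Fasl* and *Tnfsf10* stay past 1.5-fold, and those of the other 5 genes stay within it.

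The 2 death receptors with the highest levels differed least. *Tnfrsf1a*, on chromosome 6 from 125349362 to 125362484 (plus strand, ENSMUSG00000030341.17), encodes TNF receptor 1, and had an RPKM of 11.8 in the control library and 11.6 in the Eomes library. Its log2 ratio was -0.026, and the counting interval of -0.21 to 0.16 includes 0. *Tnfrsf10b*, on chromosome 14 from 69767472 to 69784411 (plus strand, ENSMUSG00000022074.6), encodes the mouse death receptor for TRAIL. Its RPKM was 12.3 and 10.4, a log2 ratio of -0.25 whose counting interval (-0.40 to -0.10) excludes 0 but stays within 1.5-fold. *Tnfsf10* was higher and *Tnfrsf10b* slightly lower. The RPKM of the ligand was thus 0.231 times that of this receptor in the control library and 0.482 times in the Eomes library. The RPKM of the 5 receptors summed to 31.2 in the control library and 29.15 in the Eomes library (log2 ratio -0.10). *Tnfrsf1a* and *Tnfrsf10b* together made up 77.2% and 75.3% of these sums. Within the rest, *Tnfrsf21* went from 8.51% to 18.2%, *Fas* from 8.83% to 4.94% and *Tnfrsf25* from 5.47% to 1.58%. The sum was thus nearly level while these shares differed. With their shortest transcripts, the shares of *Fas* (about 28 and 15 reads) and *Tnfrsf25* (about 53 and 14 reads) rest on few reads. The counting interval of *Fas* then includes 0.

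Downstream of the receptors, *Casp8*, on chromosome 1 from 58795374 to 58847503 (plus strand, ENSMUSG00000026029.14), encodes the initiator caspase and was the most abundant of the 10 genes. Its RPKM was 54.7 in the control library and 52.4 in the Eomes library, with a log2 ratio of -0.061 (counting interval -0.16 to 0.04, from about 1726 and 1673 reads). *Cflar*, upstream of it on the same strand from 58711508 to 58758884 (ENSMUSG00000026031.15) with 36489 bases between the genes, had an RPKM of 7.21 and 7.22. Its log2 ratio of 0.0020 has a counting interval of -0.24 to 0.24. *Cflar* gives rise to long and short forms of cFLIP, and the files hold 1 value for the gene, so a shift between forms would not show. *Fadd*, on chromosome 7 from 144577318 to 144582463 (minus strand, ENSMUSG00000031077.7), had an RPKM of 10.2 and 10.1 and a log2 ratio of -0.0085 (counting interval -0.15 to 0.14). The intervals of the 3 genes exclude a 1.5-fold difference between these libraries. The RPKM of *Casp8* was 7.59 times that of *Cflar* in the control library and 7.26 times in the Eomes library, and that of *Fadd* was 1.4 times that of *Cflar* in both libraries. Of the 10 genes, *Fadd* alone shares exon bases with another annotated gene, the antisense transcript *Faddos* (239 bases), which has no value in the files.

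In control, the order of levels was *Casp8*, *Fasl*, *Tnfrsf10b*, *Tnfrsf1a*, *Fadd*, *Cflar*, *Tnfsf10*, *Fas*, *Tnfrsf21* and *Tnfrsf25*. By exact Poisson intervals (95%) on the approximated reads, neighbours from *Fasl* to *Fadd* overlapped, as did *Tnfsf10*, *Fas* and *Tnfrsf21*. In Eomes-overexpressing cells, *Fasl* stood apart from the genes after it (RPKM 25.5 to 28.8, beside 10.6 to 12.7 for *Tnfrsf1a*), and *Tnfrsf21* and *Tnfsf10*, which overlapped each other, stood above *Fas* and *Tnfrsf25*. *Casp8* was first and *Tnfrsf25* last in both libraries, and *Fas* moved from position 8 to 9. Compared with all expressed genes, *Casp8* lay above 83.3% of them in control, *Fasl* above 51.8% in control and 69.2% in Eomes-overexpressing cells, and *Fas* above 15.3% and 6.38%.

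**Figure D3:**
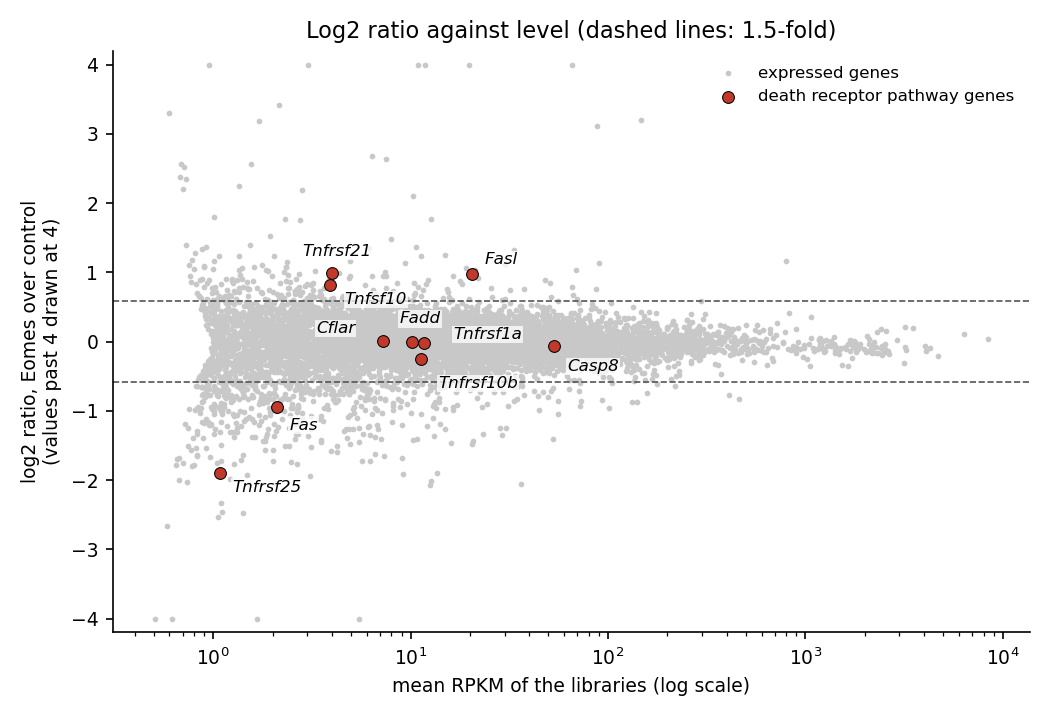
Log2 ratio, Eomes-overexpressing over control, against the mean RPKM of both libraries (log scale) for the 9925 expressed genes (grey) and the 10 death receptor pathway genes (red), with dashed lines at 1.5-fold and values past 4 drawn at 4. The spread of the grey points narrows toward higher levels. *Fasl* lies above 99.4% of the 500 genes nearest in level, *Fas* lies among them, and *Fadd*, *Casp8*, *Cflar* and *Tnfrsf1a* lie near 0.

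Across expressed genes, a higher GC content of the transcript went with a lower log2 ratio (Spearman's rho -0.43 across 9835 genes, which are not independent replicates), so the values were also centred on genes of like GC content. The GC content was 44.1% for *Fasl*, 42.8% for *Tnfsf10*, 43.9% for *Fas*, 52.4% for *Tnfrsf21* and 59.4% for *Tnfrsf25*, beside a median of 49.7% over expressed genes. After centring, the log2 ratios were 0.87, 0.66, -1.05, 1.06 and -1.79, respectively, and the same 5 genes lay past 1.5-fold. *Fadd*, *Casp8*, *Cflar*, *Tnfrsf1a* and *Tnfrsf10b* were at 0.053, -0.11, -0.11, 0.063 and -0.24.

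Around these 10 genes, a list of 60 other genes of TNF family death signaling was counted by role, and 53 of them were expressed. A higher abundance past 1.5-fold was found for 1 and a lower abundance for 2, or 5.66% of the 53, with a median log2 ratio of 0.022. Most of the list was abundant: 48 of the 53 genes had a mean RPKM of 5 or more, and 2 of these 48 (4.17%) lay past 1.5-fold, near the 3.51% of all expressed genes of such a level. Of 3 expressed ligands, *Ltb*, which encodes lymphotoxin beta, was lower, with an RPKM of 197.2 in the control library and 117.6 in the Eomes library (log2 ratio -0.75, counting interval -0.82 to -0.68). *Lta*, which encodes lymphotoxin alpha, was the most abundant of the list, at 425.0 and 486.8. None of 5 expressed receptors and decoys lay past 1.5-fold before centring by GC content, after which *Tnfrsf26*, named here after its value was seen, was past it (log2 ratio -0.54 before and -0.65 after). *Tnfrsf1b*, which encodes TNF receptor 2, was the most abundant of them, with 38.3 and 40.7.

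In the intracellular groups of the list, 2 of 45 expressed genes (4.44%) lay past 1.5-fold, and 43 of the 45 had a mean RPKM of 5 or more, the level at which the share of all expressed genes was 3.51%. A count this low is thus ordinary for genes of this level. None of 21 genes of the TNF receptor complex and its ubiquitin machinery lay past 1.5-fold, with log2 ratios from -0.54 to 0.42. The upper end was *Otulin*, a deubiquitinase of linear chains and the most abundant of this group, with an RPKM of 138.2 and 185.0. Of 9 expressed modulators of the death-inducing signaling complex, *Casp8ap2*, which encodes a caspase-8 associated protein, was higher, at 2.04 and 3.07. Its log2 ratio of 0.59 was just past 1.5-fold, and 0.38 after centring by GC content. *Daxx*, which encodes a Fas-binding protein with nuclear roles and was the most abundant modulator, had an RPKM of 29.3 and 28.8. None of 12 genes of downstream caspases and the mitochondrial arm lay past 1.5-fold, with log2 ratios from -0.22 to 0.52. Of 3 necroptosis genes, *Zbp1*, a sensor of Z-form nucleic acids, was lower, with an RPKM of 13.2 and 7.43 (log2 ratio -0.83, counting interval -1.18 to -0.49), and *Ripk3*, the necroptosis kinase, had an RPKM of 21.2 and 22.2.

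**Figure D4:**
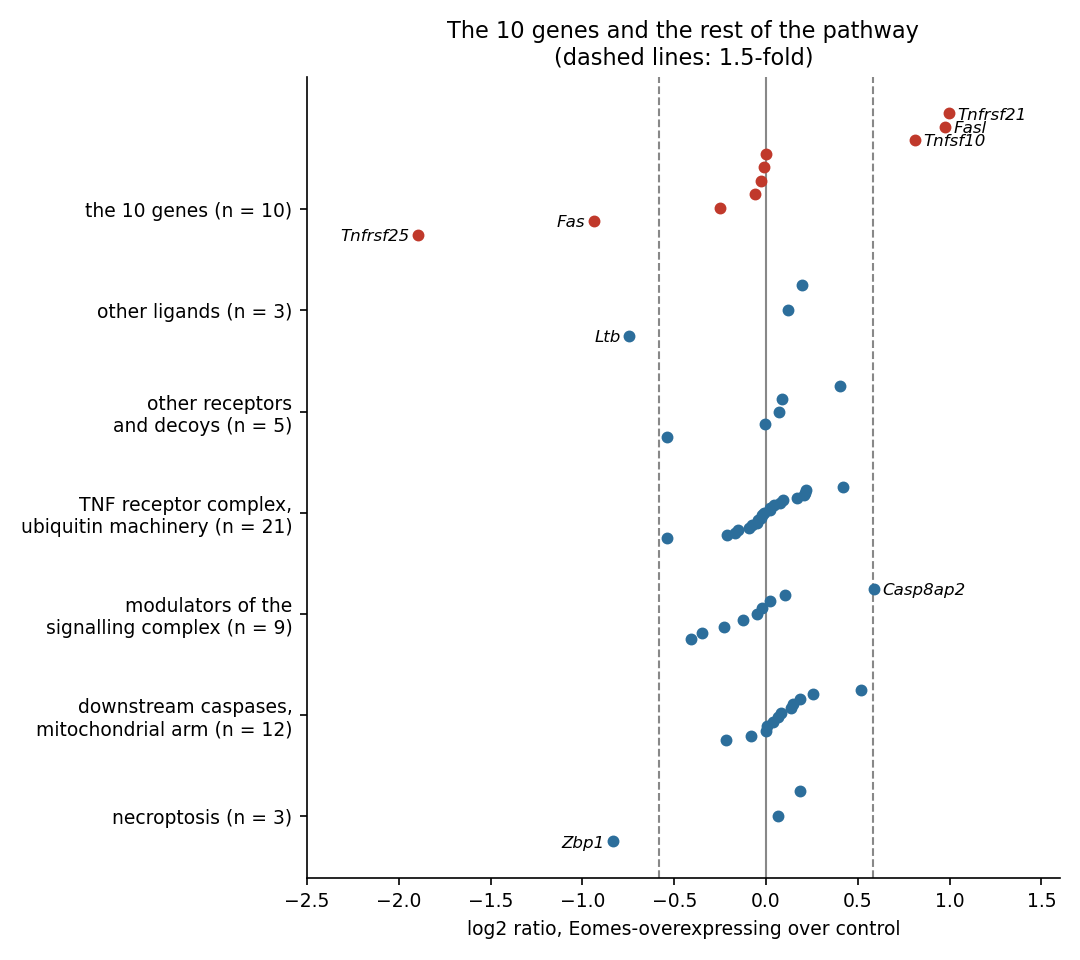
Log2 ratio, Eomes-overexpressing over control, of the 10 genes (red) and of the expressed genes of 6 other role groups (blue), 1 point per gene, with dashed lines at 1.5-fold and names of genes past it. Points are spread vertically within a group for legibility. In the other groups, *Ltb*, *Zbp1* and *Casp8ap2* lie past 1.5-fold.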

How the data were processed

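Total RNA was sequenced as 1 library per condition on an Illumina HiSeq4000. Per the methods, the authors filtered reads with SOAPnuke, mapped them with HISAT and, to mm10, with Bowtie2, and computed expression with RSEM (the submitters' processing notes name HISAT2), with versions not given in the sources used here. The authors deposited FPKM values, called RPKM in the methods, with 2 decimals and no stated normalization between libraries. Rows whose symbol had become a date, 20 of the control and 19 of the Eomes library, were not used.

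Each log2 ratio divides the Eomes by the control value, after raising values below 0.01 or not listed to 0.01. Calls used the fold change of 1.5 of the study, without its Poisson test. Depth was the read number at which RPKM times length came closest to whole reads, over 474 and 461 genes with 1 RefSeq transcript of 150 to 1500 bases and an RPKM under 0.8. With 0 to 70 bases taken off each length, it was 19380000 to 20840000 reads. The mean cosine of the read phase, 1 if all reads were whole, was 0.458 and 0.440, beside 0.277 and 0.251 at best for depths well away from it. Lengths, GC content and positions came from GENCODE vM21 (mm10). Python 3.11.15, numpy 2.4.6, pandas 2.3.3, scipy 1.17.1 and matplotlib 3.10.9 were used. Depth and intervals were tested on simulated Poisson reads of genes with 1 RefSeq transcript. Genes with several transcripts, such as *Fas*, were not simulated, so the choice of transcript was not tested.

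Named were the 10 genes, *Eomes*, and in each role group of the pathway list the genes past 1.5-fold and the most abundant one, of which 1 is not reported here. *Tnfsf15*, the ligand of DR3, and the marker genes are named besides. Genes and lists were chosen with earlier results of these data known. Alternatives were pseudocounts of 0.1 and 1, no minimum RPKM or one of 5, a 2-fold threshold, scaling by summed RPKM, by a trimmed mean of log ratios or to the median, and centring in 20 bins of GC content. A counting interval without 0 was added after seeing the data.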

Additional observations from a re-analysis of the deposited data

How the results depend on the processing

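With 1 library per condition, no spread between cultures could be measured. No paired analysis was possible because each condition holds a single library. The log2 ratios of the 10 genes stayed inside their counting intervals under both pseudocounts, the 3 scalings and the centring by GC content, except that of *Tnfrsf25*, which was -0.89 with a pseudocount of 1. The 3 scalings shifted all log2 ratios by at most 0.032. At 1.996-fold, *Tnfrsf21* fell just short of 2-fold. Scaling by summed RPKM gave it a log2 ratio of 1.03 and *Fasl* one of 1.006, both past 2-fold. Scaling to the median gave *Tnfrsf21* 1.001, and centring by GC content gave it 1.06 and *Fas* -1.05, also past 2-fold. With a 2-fold threshold and neither scaling nor centring, 0 of the 10 genes were higher and 1 was lower. With a minimum RPKM of 5, 2 were higher and 0 lower, since *Tnfsf10* (4.99 in the Eomes library), *Fas* and *Tnfrsf25* were not tested. With the added interval 1 was lower, as *Fas* was lost with its shortest transcript. In the pathway list, 0 genes were higher with a pseudocount of 0.1 or 1, after centring by GC content, with a minimum RPKM of 5 and with a 2-fold threshold, which also left 0 lower, and 2 were higher without a minimum. After centring by GC content 3 of its genes were lower in place of 2, with *Tnfrsf26* added. Of all expressed genes, 118 were higher and 285 lower with a pseudocount of 1, 1356 and 2088 without a minimum RPKM, 95 and 213 with a minimum of 5, and 69 and 175 with a 2-fold threshold, beside 244 and 515.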
